A study of Mus musculus with 12 samples.

Results

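Hearts of mice infused with angiotensin II (Ang II) were set against hearts of mice infused with saline, gene by gene. The groups were taken from the sample titles: the 3 Ang II libraries carry Ang II alone, and the 3 Control libraries carry the words Ang II control and were read as the saline group. They are 6 of the 12 heart libraries sequenced, and 15336 of the 47729 genes in the count table had enough reads to be tested. All mice were C57BL/6 males of 8 weeks. A subcutaneous osmotic pump delivered Ang II to the Ang II group and saline to the Control group for 28 days, and in the last 2 weeks both groups received vehicle. The other 6 libraries came from mice infused with Ang II and given EHP-101 by mouth at 20 mg/kg or losartan at 0.6 g/L in the drinking water over those 2 weeks. They entered the fit through the choice of genes tested, the scaling of the libraries and the shared estimate of the spread. The labels give the tissue as heart, without the chamber. Whether each replicate is an animal of its own is not stated, so p-values measure only how these samples spread, and that spread may be technical.

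Ang II is the effector peptide of the renin-angiotensin system. It acts in the heart and vessels mainly through the AT1 receptor, which couples to Gq, and a long infusion raises blood pressure. The mouse heart responds with growth of cardiomyocytes and with fibrosis, in which fibroblasts turn into matrix-producing myofibroblasts and lay down collagens, elastic fibres and matricellular proteins between the muscle cells. Lysyl oxidases crosslink these fibres, metalloproteases cut them, and transforming growth factor beta, insulin-like growth factor and cytokines of the IL-6 family act on the cells that make them.

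The libraries held 23585132 to 24040516 reads counted to genes in the Ang II group and 22155418 to 23766752 in the Control group. Control replicate 2 stood apart from the other libraries. On the first principal component of the 6 libraries, which held 63.3% of the variance, the Ang II libraries lay at 36, 9.03 and 26.6 and the Control libraries at 2.54, -81.3 and 7.15. Reads were found for 19876 genes in Control replicate 2, against 21358 to 22308 in the other 11 libraries, and its TMM factor was 0.839. The second component held 18.9% of the variance, with the Ang II libraries at 14.2, 1.5 and 27.1 and the Control libraries at -22.1, 11.8 and -32.4.

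**Figure D1:**
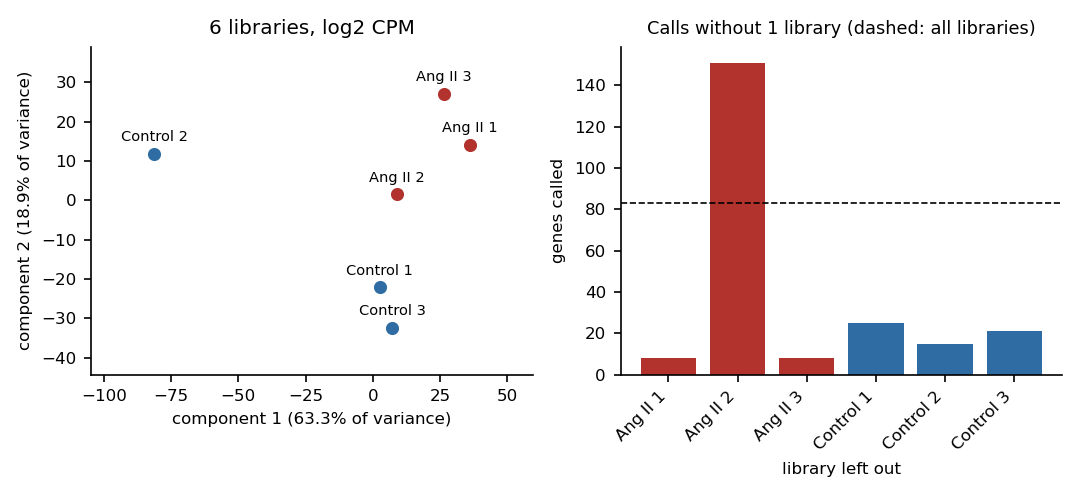
Left: the first and second principal component scores of log2 CPM for the 3 Ang II (red) and 3 Control (blue) libraries, with Control replicate 2 at -81.3 on the first component. Right: number of genes called between Ang II and Control when 1 of the 6 libraries was left out, as bars from 0, with the count of 83 for all libraries dashed; the bars run from 8 without Ang II replicate 1 or 3 to 151 without Ang II replicate 2.

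By the quasi-likelihood test of edgeR, 83 genes passed an adjusted p of 0.05 (Benjamini-Hochberg) and were called, which is 0.541% of those tested. Of these, 79 were higher in Ang II hearts (0.515%) and 4 were lower (0.0261%). Among the 79, 69 had a log2 fold change of at least 1 and 33 of at least 2. In 41 of them the lowest Ang II library was at least 2 times the highest Control library in CPM, counts scaled by effective library size. The genes were called from these same libraries, which favours such a gap. The called higher genes together held 6050 to 9950 CPM across the Ang II libraries and 2040 to 2770 CPM across the Control libraries. The values of all 83 genes did not overlap between the groups, as was the case for 22.6% of all tested genes. An unadjusted p of 0.05 was passed by 17.6% of the tested genes, 9.09% higher and 8.53% lower. DESeq2 called 3.36% of the genes it tested, 2.39% higher and 0.97% lower, and limma-voom called 0.333%, 0.326% higher and 0.00652% lower. Over all tested genes the median log2 fold change was 0.00, and scaling by library size alone moved it to 0.17.

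The libraries within each group were not alike. Ang II replicate 2 was the lowest of its group in 77 of the 79 called higher genes and in 38.6% of all genes tested, and Control replicate 2 was the lowest of its group in 56 of the 79 and in 45.8% of all genes tested. The calls depended on single libraries: 8 genes were called without Ang II replicate 1, 151 without Ang II replicate 2 and 8 without Ang II replicate 3, against 25, 15 and 21 without Control replicates 1, 2 and 3. Markers of atrial muscle also differed between libraries, with sums that overlapped between the groups. Their median log2 fold change was 0.52, and 0.07 without Control replicate 2, and 0 of the 12 were called in edgeR. The 12 atrial markers summed to 5820, 4150 and 4080 CPM across the Ang II libraries and to 3240, 1930 and 4390 CPM across the Control libraries, and the mean log2 score of the list was 1.53, 1.06 and 1.07 against 0.77, -1.66 and 0.72. With that score in the model, 37 genes were called, all higher and all among the 83. The part of the atrial markers in the other calls was not tested.

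**Figure D2:**
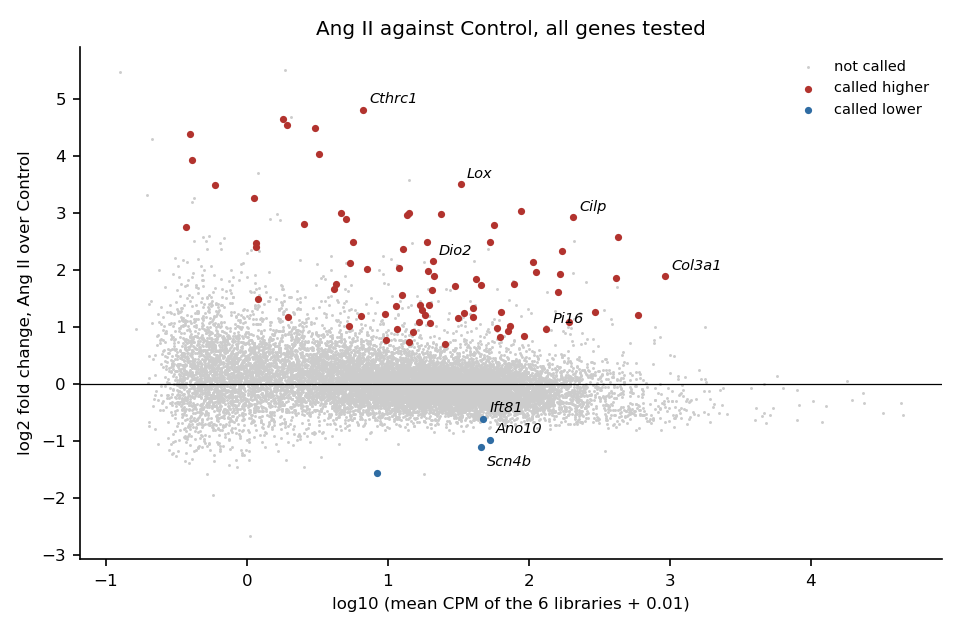
Mean level of each tested gene over the 6 libraries (log10 of CPM plus 0.01) against its log2 fold change, Ang II over Control. The 79 called higher genes (red) reach from low to high levels, whereas the 4 called lower genes (blue) lie between log2 fold changes of -0.61 and -1.56.

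The genes Cilp, Col8a1, Tnc, Dio2 and Loxl3 were called whichever 1 of the 12 libraries was left out. Cilp, a cartilage-type matrix protein that binds transforming growth factor beta, had 404, 303 and 385 CPM across the Ang II libraries and 56.6, 36.4 and 50.1 CPM across the Control libraries. Every Ang II library was at least 5.35 times the highest Control library, and the log2 fold change was 2.93 ± 0.29 (SE, adjusted p = 0.00176). Leaving out 1 of the 6 libraries kept it between 2.77 and 3.07. Col8a1, a short-chain network collagen of vessel walls, had 196, 141 and 204 CPM across the Ang II libraries and 39.3, 44.2 and 54.2 CPM across the Control libraries (log2 fold change 1.97 ± 0.20, adjusted p = 0.00176). Tnc, the matricellular protein tenascin-C, had 28.6, 15.3 and 31.6 CPM across the Ang II libraries, against 3.17, 1.99 and 4.13 CPM across the Control libraries (3.01 ± 0.32, adjusted p = 0.00176). For both, Ang II replicate 2 lay below the other Ang II libraries and still above every Control library.

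Dio2, the deiodinase that makes active thyroid hormone inside cells, is not a matrix gene and lies on chromosome 12 (90724552 to 90738438, minus strand, GRCm38 with GENCODE M21). It had 39.6, 23.6 and 39.1 CPM across the Ang II libraries and 7.60, 6.94 and 8.30 CPM across the Control libraries (2.16 ± 0.23, adjusted p = 0.00176). The Control libraries of Dio2 were close together and the Ang II libraries spread over a wider range above them. Loxl3, a lysyl oxidase, had 36.7, 24.3 and 39.9 CPM across the Ang II libraries and 10.2, 7.0 and 9.64 CPM across the Control libraries (1.91 ± 0.23, adjusted p = 0.00435). Exons of Tnc, Dio2 and Loxl3 overlap those of an opposite-strand gene, and since strand is not kept by the kit, reads from the overlap cannot be assigned.

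The promoter windows of Cilp, Col8a1 and Tnc are shown because these genes kept their calls whichever library was left out. The windows run from 250 bases before to 50 bases after the RefSeq start site on GRCm38.p6, 5′ to 3′ on the gene's strand. They are Cilp at chr9:65264930-65265229 (plus strand), Col8a1 at chr16:57754688-57754987 (minus strand) and, of 2 windows of the gene, the Tnc window nearest to the annotated start at chr4:64046966-64047265 (minus strand). Capitals mark letters found by a search of both strands for the AP-1 site TGANTCA, the SMAD box CAGACA, the TEAD box GGAATG, the TATA box TATAAA and the CArG box of serum response factor. Overlapping hits were allowed.
Cilp: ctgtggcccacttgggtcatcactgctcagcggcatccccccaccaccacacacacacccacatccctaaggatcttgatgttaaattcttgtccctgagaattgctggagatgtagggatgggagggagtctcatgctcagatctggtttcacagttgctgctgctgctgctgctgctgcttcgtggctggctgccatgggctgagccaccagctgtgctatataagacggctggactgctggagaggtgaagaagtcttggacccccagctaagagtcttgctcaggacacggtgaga
Col8a1: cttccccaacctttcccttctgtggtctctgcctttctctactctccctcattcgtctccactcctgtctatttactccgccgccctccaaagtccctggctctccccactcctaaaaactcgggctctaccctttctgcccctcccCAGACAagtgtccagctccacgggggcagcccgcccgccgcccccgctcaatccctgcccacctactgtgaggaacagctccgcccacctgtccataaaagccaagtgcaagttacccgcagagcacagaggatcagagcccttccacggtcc
Tnc: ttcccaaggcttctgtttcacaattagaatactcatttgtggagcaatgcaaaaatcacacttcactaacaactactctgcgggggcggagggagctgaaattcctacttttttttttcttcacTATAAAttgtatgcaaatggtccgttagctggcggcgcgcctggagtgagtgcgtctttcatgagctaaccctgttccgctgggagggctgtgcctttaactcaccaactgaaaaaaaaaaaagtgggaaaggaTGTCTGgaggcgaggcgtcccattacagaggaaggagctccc
The Col8a1 window held a SMAD box starting 103 bases before the start site, and the Tnc window held a SMAD box on the minus strand at base 9 after the start and TATAAA starting 126 bases before it. None of the exact strings searched for was found in the Cilp window, which holds tatataag, a near match to TATAAA that the search did not count. Over the 70 windows of 58 called higher genes, 32.9% held CAGACA, against 16.7% of the 14578 windows of all tested genes. TGANTCA was in 10% against 5.47%, TATAAA in 14.3% against 7.65%, GGAATG in 14.3% against 12.6% and the CArG box in 1.43% against 1.32%. The windows of the called higher genes had a mean GC content of 56.4%, against 60.2% over all windows, and a letter match is a description and not a binding site.

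**Figure D3:**
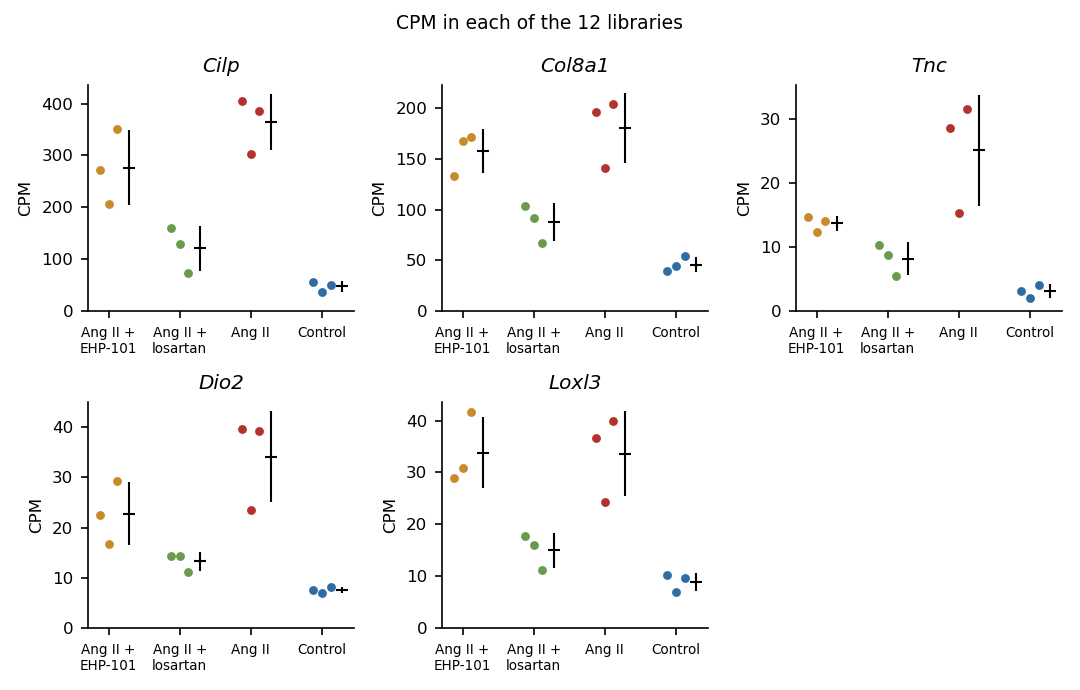
CPM in each of the 12 libraries for 5 genes called whichever library was left out, by group from left to right Ang II with EHP-101, Ang II with losartan, Ang II and Control, with the mean and SD of the 3 libraries beside the points. In all 5 genes the 3 Ang II libraries lie above the 3 Control libraries.

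In the treated hearts these genes took their own levels, and they share the Ang II and Control libraries already given. Cilp had 272, 207 and 351 CPM with Ang II and EHP-101, and 160, 129 and 73.0 CPM with Ang II and losartan. In all 5 genes each of the 9 Ang II infused libraries was above every Control library, as in 39 of the 79 called higher genes. Col8a1 had 133, 168 and 172 CPM under EHP-101 and 104, 91.6 and 67.6 CPM under losartan, and Loxl3 had 29.0, 30.8 and 41.6 CPM under EHP-101 and 17.7, 16.0 and 11.3 CPM under losartan. Tnc had 14.7, 12.4 and 14.1 CPM under EHP-101 and 10.4, 8.82 and 5.44 CPM under losartan. Dio2 had 22.5, 16.7 and 29.2 CPM under EHP-101 and 14.4, 14.3 and 11.2 CPM under losartan. In all 5 genes each losartan library was below each library with Ang II alone. The genes were called for high values in those same Ang II libraries, which favours lower values in any other group. Of the 79 called higher genes, 79 had a lower mean under losartan than with Ang II alone, and 74 a lower mean under EHP-101. No test of these groups was made here.

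Collagen genes were higher as a class. The 44 collagen chain genes took 0.728%, 0.473% and 0.797% of all counts in the Ang II libraries and 0.287%, 0.135% and 0.317% in the Control libraries. Every Ang II library had a larger share than every Control library, and Control replicate 2 had the smallest. In bulk tissue, more fibroblasts and more RNA per fibroblast cannot be told apart. Of 9 tested fibrillar collagens 4 were called higher and 0 lower, with a median log2 fold change of 1.8 beside 0.00 over all genes. All 9 log2 fold changes were above 0, and DESeq2 called 8 higher and 0 lower. Of 13 tested network, beaded and FACIT collagens 6 were called higher and 0 lower, with a median of 1.67. All 13 were above 0, and DESeq2 called 10 higher and 0 lower. Col3a1, the fibrillar collagen of compliant tissue, had 1510, 966 and 1880 CPM across the Ang II libraries and 451, 246 and 478 CPM across the Control libraries (log2 fold change 1.89 ± 0.32, adjusted p = 0.0235). Col5a2, a chain of collagen V, which sets fibril diameter, had 288, 182 and 328 CPM across the Ang II libraries and 78.5, 45.6 and 84.0 CPM across the Control libraries (1.94 ± 0.26, adjusted p = 0.0095). Both genes were lowest in replicate 2 of each group, and the groups were apart.

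Among the collagens that sit on the fibril surface, Col12a1 had 44.7, 27.5 and 54.2 CPM across the Ang II libraries and 8.60, 1.99 and 5.17 CPM across the Control libraries (2.98 ± 0.48, adjusted p = 0.0196). Col22a1, a collagen of tissue junctions, had 8.85, 6.15 and 11.8 CPM across the Ang II libraries and 1.34, 0.70 and 1.5 CPM across the Control libraries (2.90 ± 0.43, adjusted p = 0.0132). Col16a1 and Col9a2, of the same class, and Col8a2, the partner chain of Col8a1, rose 3.31-fold, 5.28-fold and 7.83-fold. Col11a1, a fibrillar chain best known from cartilage, had 6.27, 3.41 and 8.62 CPM across the Ang II libraries and 0.626, 0.0538 and 0.375 CPM across the Control libraries. Its fold change of 16.4 became 25.8 without Control replicate 1. Col1a1, the main chain of collagen I, had 442, 249 and 493 CPM across the Ang II libraries and 146, 51.1 and 143 CPM across the Control libraries, and missed the threshold (1.8 ± 0.38, adjusted p = 0.0635), while its partner Col1a2 passed (1.87 ± 0.35, adjusted p = 0.0381). Without Ang II replicate 1 or 3 only Col8a1 of the 10 called collagens stayed called, with adjusted p values up to 0.162 and 0.195. Without Control replicates 1, 2 and 3, 4, 2 and 3 of the 10 were called, and without Control replicate 2 the list medians were 1.45 for fibrillar and 1.28 for network, beaded and FACIT collagens. Exons of Col3a1 and Col22a1 overlap those of another gene. Of 25 tested basement membrane genes 0 were called in edgeR or limma-voom, and 3 were called higher and 1 lower in DESeq2. An unadjusted p of 0.05 was passed by 7 of them, and by 17.6% of all tested genes. Their median log2 fold change was 0.46, and 0.17 without Control replicate 2.

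Fewer calls fell among the genes that modify and crosslink collagen. Of 33 tested genes of collagen biosynthesis and crosslinking, 5 were called higher and 0 lower, with a median log2 fold change of 0.30. Of the 33, 31 had log2 fold changes above 0, and DESeq2 called 9 higher and 0 lower. The groups were apart with Ang II higher in 17, against 12.3% of all genes. Lox, the founding lysyl oxidase, had 61.3, 35.8 and 84.6 CPM across the Ang II libraries and 5.68, 4.52 and 5.63 CPM across the Control libraries (3.52 ± 0.43, adjusted p = 0.00435). The lowest Ang II library was 6.30 times the highest Control library. Adamts2, which trims the amino-terminal propeptide of procollagen, had 98.8, 69.3 and 101 CPM across the Ang II libraries and 40.3, 28.1 and 43.8 CPM across the Control libraries (1.26 ± 0.21, adjusted p = 0.0239). Loxl1, which crosslinks elastin, had 108, 83.4 and 103 CPM across the Ang II libraries and 43.9, 55.3 and 45.9 CPM across the Control libraries (1.02 ± 0.17, adjusted p = 0.0248). P4ha3, a catalytic subunit of prolyl 4-hydroxylase, had 1.62 to 2.47 CPM across the Ang II libraries and 0.0538 to 0.376 CPM across the Control libraries, and its fold change of 9.66 became 16.9 without Control replicate 1. Exons of Lox overlap those of an opposite-strand gene, and it lost its call without Control replicate 2 (adjusted p = 0.0908). Adamts2, Loxl1 and P4ha3 lost theirs without Ang II replicate 1 or 3, at adjusted p values up to 0.124 and 0.135, and without Control replicates 1, 2 and 3 the called genes of the 5 were 3, 2 and 2.

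Matricellular proteins and matrix glycoproteins act on cells as much as they build tissue. Of 35 tested, 9 were called higher and 0 lower, with a median log2 fold change of 1.22, and of 1.03 without Control replicate 2. DESeq2 called 21 of the 35 higher and 0 lower. Thbs4, thrombospondin 4, had 165, 113 and 197 CPM across the Ang II libraries and 21.1, 17.4 and 18.9 CPM across the Control libraries (3.05 ± 0.37, adjusted p = 0.00435). Postn, the periostin of activated fibroblasts, had 790, 560 and 847 CPM across the Ang II libraries and 121, 128 and 120 CPM across the Control libraries (2.58 ± 0.39, adjusted p = 0.015). The Control libraries of Postn and Thbs4 were nearly level, and the spread was among the Ang II libraries. Cthrc1, a secreted protein of repairing vessels and heart scars, had 13.9, 7.68 and 17.3 CPM across the Ang II libraries and 0.543, 0.646 and 0.209 CPM across the Control libraries (4.82 ± 0.73, adjusted p = 0.015). Svep1, a large adhesive matrix protein, had 85.5, 53.7 and 71.7 CPM across the Ang II libraries and 21.8, 11.5 and 29.5 CPM across the Control libraries (1.75 ± 0.32, adjusted p = 0.0381). Srpx2, a sushi-repeat protein, and Thbs3, a second thrombospondin of the pentameric kind, rose 2.33-fold and 2.47-fold. Ccn2, connective tissue growth factor, had 224, 191 and 245 CPM across the Ang II libraries and 101, 95.2 and 73.1 CPM across the Control libraries, groups that were apart without a call (1.29 ± 0.35, adjusted p = 0.132). Thbs4 lost its call without Control replicate 2 (adjusted p = 0.0898). Apart from Cilp, Tnc and Thbs4, the called genes of this class lost it without Ang II replicate 1 or 3, Postn at 0.0626 and 0.0783 and Cthrc1 at 0.056 and 0.069, and Srpx2 was the only one of them called without Control replicate 2. Of the 8 called genes set out here, 3 were called without Control replicate 1 and 4 without Control replicate 3. Exons of Svep1, Thbs3 and Ccn2 overlap those of an opposite-strand gene.

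**Figure D4:**
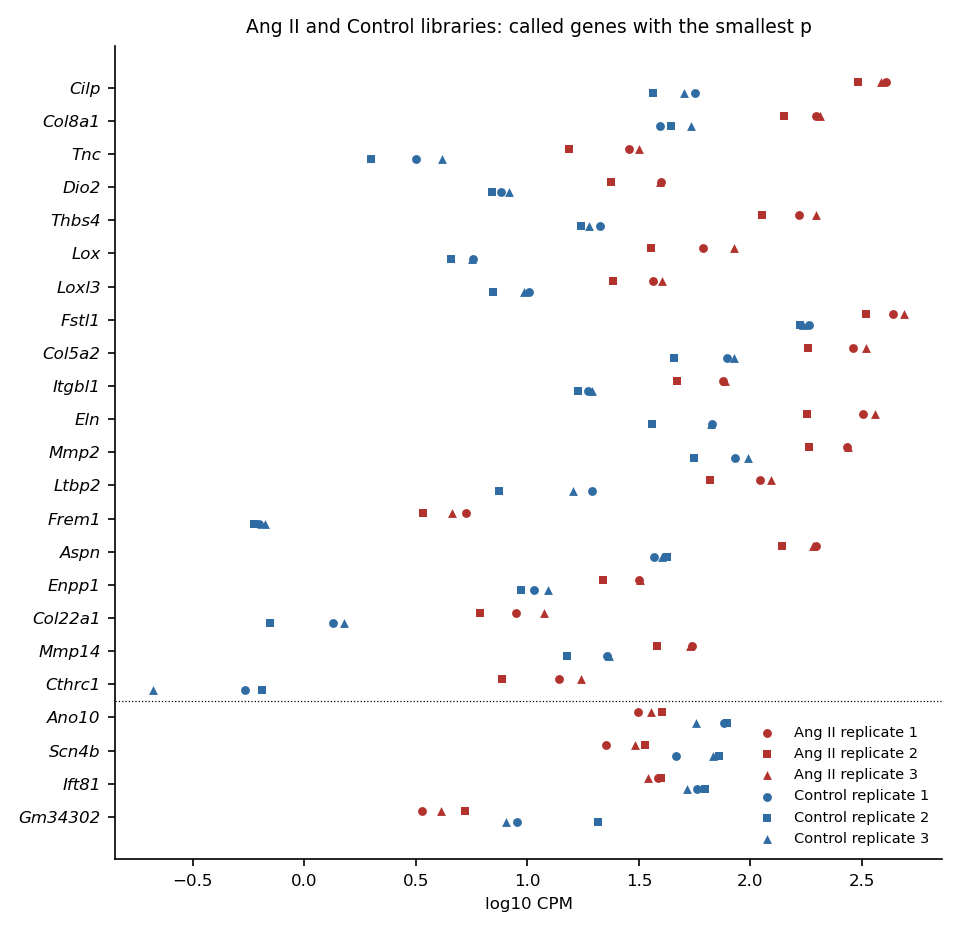
Log10 CPM of 19 of the 20 called higher genes with the smallest p and, below the dotted line, the 4 called lower genes. Ang II libraries are red and Control libraries blue, with circles, squares and triangles for replicates 1, 2 and 3; the groups do not overlap in any of these genes, and the red square, Ang II replicate 2, is the lowest of its group in the higher genes.

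Elastic fibres give the vessel wall and the interstitium their recoil. Of 18 tested genes of elastic fibres and microfibrils 5 rose and 0 fell, with a median log2 fold change of 0.97, and the groups were apart with Ang II higher in 14, against 12.3% of all genes. Eln, elastin itself, had 319, 179 and 363 CPM across the Ang II libraries and 67.2, 36 and 66.5 CPM across the Control libraries (2.34 ± 0.32, adjusted p = 0.00987). Ltbp2, a fibrillin-binding protein, had 110, 65.6 and 124 CPM across the Ang II libraries and 19.4, 7.43 and 16.0 CPM across the Control libraries (2.80 ± 0.39, adjusted p = 0.00987). In both genes replicate 2 was the lowest of its group on each side. Mfap4, a microfibril-associated glycoprotein, Fbn2, the fibrillin of developing tissue, and Emilin1, an elastin-interface protein, rose 3.39-fold, 3.16-fold and 1.98-fold.

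Fewer calls fell among the proteoglycans. Of 30 tested genes of proteoglycans and hyaluronan 2 were called higher and 0 lower, with a median of 0.62, and DESeq2 called 9 higher and 0 lower. Aspn, the small leucine-rich proteoglycan asporin, had 196, 138 and 191 CPM across the Ang II libraries and 37.0, 42.3 and 40.0 CPM across the Control libraries (2.14 ± 0.31, adjusted p = 0.01). Bgn, biglycan, of the same family, had 803, 649 and 1040 CPM across the Ang II libraries and 412, 260 and 398 CPM across the Control libraries (1.22 ± 0.24, adjusted p = 0.0471). Lum, lumican, fell just outside the threshold at 1.15 ± 0.23 (adjusted p = 0.0525), with groups that did not overlap. Frem1, a protein of the epithelial and mesenchymal basement membrane interface, had 5.28, 3.41 and 4.61 CPM across the Ang II libraries and 0.626, 0.592 and 0.668 CPM across the Control libraries (2.80 ± 0.40, adjusted p = 0.01), and Dsel, a dermatan sulfate epimerase, rose 1.67-fold. All 9 called genes of elastic fibres, proteoglycans and these neighbours lost the call without Ang II replicate 1 (adjusted p = 0.056 to 0.235), without Ang II replicate 3 (0.0587 to 0.296) and without Control replicate 2 (0.0593 to 0.129). Eln, Fbn2 and Ltbp2 were called without Control replicate 1, and Eln without Control replicate 3. Exons of Eln, Ltbp2, Aspn, Mfap4 and Fbn2 overlap those of an opposite-strand gene.

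A few matrix proteases and inhibitors were called. Of 40 tested metalloproteases and inhibitors 3 were called higher and 0 lower, with a median log2 fold change of 0.50. Of 24 tested serpins, plasminogen-system genes and cathepsins 2 were called higher and 0 lower, with a median of 0.42. DESeq2 called 13 and 6 of these lists higher and 0 lower. Mmp2, a gelatinase, had 272, 183 and 275 CPM across the Ang II libraries and 84.9, 55.9 and 97.0 CPM across the Control libraries (1.62 ± 0.23, adjusted p = 0.00987). Mmp14, the membrane protease that activates the Mmp2 protein, had 54.4, 38.0 and 53.4 CPM across the Ang II libraries and 22.7, 15.0 and 23.3 CPM across the Control libraries (1.25 ± 0.19, adjusted p = 0.0142). Ang II replicate 2 was the lowest of its group and Control replicate 2 the lowest of its group in both. Timp1, a tissue inhibitor of metalloproteases, had 22.6, 18.1 and 56.4 CPM across the Ang II libraries and 5.39, 8.29 and 3.63 CPM across the Control libraries (2.50 ± 0.45, adjusted p = 0.0299). Serpina3n, an inhibitor of serine proteases, had 74.6, 52.7 and 144 CPM across the Ang II libraries and 16.9, 14.9 and 16.2 CPM across the Control libraries (2.50 ± 0.45, adjusted p = 0.0334). Ang II replicate 3 was far above the other Ang II libraries in both, and without it the fold change of Timp1 was 3.58 in place of 5.65. Serpinf1, which encodes pigment epithelium-derived factor, and Pamr1, a secreted protease-domain protein, rose 1.92-fold and 3.96-fold. Without Ang II replicate 1 or 3 none of these 6 genes was called (adjusted p = 0.056 to 0.202 and 0.0672 to 0.261), and without Control replicate 1, 2 or 3 Mmp2 and Mmp14 alone were. Serpina3n belongs to a family of near-identical genes, among which the counting could split reads.

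Several secreted signals rose with the matrix. Of 19 tested genes of the insulin-like growth factor axis and the C1q/TNF proteins 4 were called higher and 0 lower. Their median log2 fold change was 0.58, and DESeq2 called 5 higher and 0 lower. Igf1 had 60.4, 41.5 and 64.2 CPM across the Ang II libraries and 28.3, 17.8 and 27.6 CPM across the Control libraries (1.17 ± 0.20, adjusted p = 0.0239). Igfbp2, which binds it, had 2.54, 1.29 and 6.56 CPM across the Ang II libraries and 0.209, 0 and 0.167 CPM across the Control libraries (4.65 ± 0.84, adjusted p = 0.0318), a fold change of 25 that became 13.9 without Ang II replicate 3. C1qtnf3, a secreted protein of the C1q/TNF family, had 4.97, 3.90 and 8.66 CPM across the Ang II libraries and 0.334, 0.161 and 0.25 CPM across the Control libraries (4.50 ± 0.74, adjusted p = 0.0203). C1qtnf6, of the same family, rose 2.1-fold. In each of these genes the Ang II libraries were all above the Control libraries, with Ang II replicate 3 the highest.

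In the transforming growth factor beta and bone morphogenetic protein pathway 2 of 39 tested genes were called higher and 0 lower. The median was 0.44, and DESeq2 called 8 higher and 0 lower. Tgfb3 had 71.4, 43.8 and 59.0 CPM across the Ang II libraries and 25.8, 18.6 and 24.3 CPM across the Control libraries (1.34 ± 0.25, adjusted p = 0.0406). Tgfb1 had 22.6, 24.2 and 27.6 CPM across the Ang II libraries and 22, 32.7 and 21.7 CPM across the Control libraries, which overlap (-0.04 ± 0.16, adjusted p = 0.921). Tgfb2 lay between them at 0.83 ± 0.20 (adjusted p = 0.102). Fstl1, a follistatin-like secreted glycoprotein, had 435, 331 and 490 CPM across the Ang II libraries and 183, 167 and 172 CPM across the Control libraries (1.27 ± 0.17, adjusted p = 0.0095). The Control libraries of Fstl1 were almost level and the lowest Ang II library was 1.82 times the highest of them.

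Of 37 tested WNT pathway genes 1 was called higher and 0 lower, with a median of 0.39, and of 0.16 without Control replicate 2. DESeq2 called 6 higher and 0 lower. The edgeR call was Frzb, a secreted frizzled-related WNT antagonist, with 31.5, 21.1 and 42.0 CPM across the Ang II libraries and 12.1, 7.27 and 10.6 CPM across the Control libraries (1.66 ± 0.27, adjusted p = 0.019). The related antagonists Sfrp2 and Sfrp1 were apart between the groups without a call, Sfrp2 at 2.08 ± 0.47 (adjusted p = 0.0815) and Sfrp1 at 1.39 ± 0.32 (adjusted p = 0.0833). Nkd2, an intracellular WNT antagonist, missed the threshold narrowly (1.43 ± 0.29, adjusted p = 0.0519). Of 44 growth factors and receptors 3 were called higher and 0 lower, with a median of 0.38, and DESeq2 called 8 higher and 0 lower. Ptn, pleiotrophin, a heparin-binding growth factor, had 25.5, 14.9 and 24.7 CPM across the Ang II libraries and 5.30, 2.80 and 4.34 CPM across the Control libraries (2.38 ± 0.45, adjusted p = 0.0424). Egfr, the epidermal growth factor receptor, and Pdgfrl, a secreted relative of the platelet-derived growth factor receptors, rose 2.12-fold and 2.94-fold. Among 25 integrins and matrix receptors the 1 called gene was Itgbl1, a secreted protein with integrin beta-like repeats, with 75.1, 46.7 and 77.2 CPM across the Ang II libraries and 18.7, 16.9 and 19.5 CPM across the Control libraries (1.85 ± 0.26, adjusted p = 0.00987). None of these 11 called signalling genes was called without Ang II replicate 1 (adjusted p = 0.056 to 0.219) or 3 (0.0587 to 0.224), and 4, 1 and 2 were without Control replicates 1, 2 and 3, Fstl1 each time. Exons of Tgfb3, C1qtnf6 and Sfrp2 overlap those of an opposite-strand gene.

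Genes of the IL-6 family and of leukocytes were the next group. Of 22 tested acute phase and IL-6 family genes 3 were called higher, Serpina3n and Socs3 among them, and 0 lower. The median log2 fold change was 0.55, and DESeq2 called 7 higher and 0 lower. Socs3, the feedback inhibitor that IL-6 type cytokines induce, had 12, 11.4 and 13.5 CPM across the Ang II libraries and 7.10, 7.70 and 6.84 CPM across the Control libraries (0.77 ± 0.15, adjusted p = 0.0436). Sbno2, a transcriptional regulator downstream of STAT3, had 30.8, 27.2 and 36.7 CPM across the Ang II libraries and 20.1, 17.5 and 20.4 CPM across the Control libraries (0.71 ± 0.13, adjusted p = 0.0334). Both changes were small and the groups were still apart. Of 42 tested chemokine, cytokine and receptor genes 2 were called higher and 0 lower, with a median of 0.50, and DESeq2 called 6 higher and 0 lower. Ccr2, the receptor that brings monocytes to tissue, had 16.9, 12.3 and 28.9 CPM across the Ang II libraries and 5.09, 2.85 and 6.09 CPM across the Control libraries (2.04 ± 0.38, adjusted p = 0.039). Cxcr3, a chemokine receptor of activated T cells, had 0.456, 0.623 and 0.825 CPM across the Ang II libraries and 0.125, 0.0538 and 0.0834 CPM across the Control libraries (2.75 ± 0.47, adjusted p = 0.0251). Csf2rb2, the mouse beta subunit of the IL-3 receptor, rose 3.38-fold, and the near-identical Csf2rb could take some of its reads.

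Markers of whole leukocyte classes gave smaller differences. The 15 macrophage and monocyte markers, among them Ccr2, summed to 299 to 377 CPM across the Ang II libraries and 262 to 341 CPM across the Control libraries. The 13 markers of dendritic cells and class II summed to 286 to 443 CPM across the Ang II libraries and 173 to 270 CPM across the Control libraries. In edgeR and limma-voom 0 of these 13 were called, 4 were called higher in DESeq2 and 8 passed an unadjusted p of 0.05, with a median of 0.65. That unadjusted p was passed by 17.6% of all tested genes. The 11 T and NK cell markers summed to 6.11 to 8.47 CPM across the Ang II libraries and 4.63 to 5.34 CPM across the Control libraries, and Cd3e, Cd3d, Cd3g and Cd8a were under 1 CPM in all 6. Of 30 interferon-stimulated genes 0 were called in edgeR or limma-voom, 2 were called higher in DESeq2 and 5 passed an unadjusted p of 0.05, with a median of 0.13. Of 23 complement genes 0 were called in edgeR or limma-voom, 5 were called higher in DESeq2 and 11 passed an unadjusted p of 0.05, with a median of 0.57. The part of these cells in the calls was not tested. The called cytokine and leukocyte genes named here, Socs3, Sbno2, Ccr2, Cxcr3 and Csf2rb2, were not called without Ang II replicate 1, Ang II replicate 3 or any 1 Control replicate, reaching adjusted p values of 0.155 and 0.253 without Ang II replicates 1 and 3, and up to 0.117, 0.151 and 0.102 without Control replicates 1, 2 and 3.

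A further set of higher genes is known from fibroblasts, smooth muscle and stressed cells. Pi16, a marker of resting fibroblasts around vessels, had 196, 149 and 181 CPM across the Ang II libraries and 89.1, 89.3 and 90.9 CPM across the Control libraries (0.96 ± 0.15, adjusted p = 0.019). Emp1, an epithelial membrane protein, had 279, 211 and 297 CPM across the Ang II libraries and 110, 155 and 104 CPM across the Control libraries (1.09 ± 0.17, adjusted p = 0.0181). For Emp1 Control replicate 2 was the highest Control library, and without it the gene was called at an adjusted p of 0.00894. Csrp2, a LIM protein of smooth muscle, had 43.5, 35.5 and 51.3 CPM across the Ang II libraries and 21.2, 19.9 and 17.6 CPM across the Control libraries (1.15 ± 0.21, adjusted p = 0.0299). Ddah1, which breaks down an endogenous inhibitor of nitric oxide synthase, rose 2.63-fold and Tmem119, a membrane protein of osteoblasts and microglia, 2.58-fold. Sprr1a, a small proline-rich protein induced in stressed cardiomyocytes, had 2.70, 2.20 and 6.07 CPM across the Ang II libraries and 0.167, 0.269 and 0.0417 CPM across the Control libraries (4.54 ± 0.73, adjusted p = 0.0196).

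Piezo2, a stretch-gated cation channel of sensory neurons, had 10.3, 6.27 and 9.71 CPM across the Ang II libraries and 2.71, 0.753 and 2.42 CPM across the Control libraries (2.13 ± 0.42, adjusted p = 0.048). Gpr176, an orphan receptor, rose 5.59-fold from low levels, and Dpysl3, a protein of axon growth cones, Mxra8, a membrane protein that alphaviruses use as a receptor, Medag, of the adipocyte lineage, and Cercam rose 1.78-fold to 2.28-fold. Without Ang II replicate 1 or 3 none of these 12 genes was called (adjusted p = 0.056 to 0.235 and 0.0986 to 0.290), Emp1 alone was called without Control replicate 2, and none without Control replicate 1 or 3. Exons of Pi16, Medag, Gpr176, Mxra8 and Cercam overlap those of another gene.

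Other higher genes belong to none of these classes. Enpp1, which makes extracellular pyrophosphate and so restrains mineralisation, had 31.5, 21.8 and 31.8 CPM across the Ang II libraries and 10.7, 9.31 and 12.4 CPM across the Control libraries (1.39 ± 0.20, adjusted p = 0.01). Apobec1, the cytidine deaminase that edits apolipoprotein B mRNA, had 15.6, 12.9 and 17.8 CPM across the Ang II libraries and 7.43, 7.21 and 8.93 CPM across the Control libraries (0.97 ± 0.15, adjusted p = 0.019). Zfp185, a LIM-domain protein of the actin cytoskeleton, rose 5.66-fold, Tmem45a 2.35-fold, the small GTPase gene Rab15 2.27-fold and B4galnt1, a ganglioside synthase, 2.03-fold. Crabp2, a carrier of retinoic acid, and Aqp2, the water channel of the renal collecting duct, were at the edge of detection, with 0.332 to 1.27 and 0.415 to 1.01 CPM across the Ang II libraries and at most 0.0538 and 0.0835 CPM across the Control libraries. Their fold changes of 21.1 and 15.2 rest on few reads and became 13.5 without Ang II replicate 3 and 26.5 without Control replicate 1. The noncoding G530011O06Rik, with 0.608 to 1.69 CPM across the Ang II libraries and at most 0.161 CPM across the Control libraries, had a fold change of 11.3 that became 7.41 without Control replicate 1, and the pseudogene AA414768 rose 2.81-fold. Of these 12 genes, which include Dio2 and Dnm3os, only Dio2 was called without Ang II replicate 1 (adjusted p up to 0.241) and without Ang II replicate 3 (up to 0.250), and 1, 2 and 3 were without Control replicates 1, 2 and 3. Exons of B4galnt1 and G530011O06Rik overlap those of an opposite-strand gene.

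Dnm3os is a noncoding RNA on chromosome 1 (162217623 to 162225550, plus strand, GRCm38), known as the host transcript of 2 microRNA hairpins in the mouse. It had 13.9, 7.19 and 13.3 CPM across the Ang II libraries and 3.22, 1.67 and 3.5 CPM across the Control libraries, with replicate 2 the lowest on each side and no overlap (log2 fold change 2.02 ± 0.38, adjusted p = 0.0384). The mature microRNAs that RefSeq (GRCm38.p6) places inside it are shown because the host is among the called genes, with the seed, bases 2 to 8, in capitals.
mmu-miR-199a-5p: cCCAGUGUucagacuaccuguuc
mmu-miR-199a-3p: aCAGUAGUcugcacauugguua
mmu-miR-214-5p: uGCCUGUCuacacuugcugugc
mmu-miR-214-3p: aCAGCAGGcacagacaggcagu
The 4 seeds differ from each other. Poly(A) libraries do not measure mature microRNAs, so nothing here gives their level. GENCODE classes Dnm3os as antisense to another gene, and with no strand kept its reads cannot be told from unspliced reads of that gene.

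The 4 genes that fell are of mixed kinds. Ano10, an anoctamin membrane protein of the endoplasmic reticulum (chromosome 9, 122175874 to 122294423, minus strand), had 31.2, 40.3 and 35.9 CPM across the Ang II libraries and 75.8, 78.5 and 56.7 CPM across the Control libraries (log2 fold change -0.97 ± 0.16, adjusted p = 0.0203). Scn4b, a beta subunit of voltage-gated sodium channels (chromosome 9, 45138395 to 45154152, plus strand), had 22.5, 33.6 and 30.5 CPM across the Ang II libraries and 46.5, 72.4 and 67.7 CPM across the Control libraries (-1.11 ± 0.22, adjusted p = 0.048). Ift81, of the intraflagellar transport machinery (chromosome 5, 122550204 to 122614518, minus strand), had 38.4, 39.7 and 34.6 CPM across the Ang II libraries and 57.5, 62.2 and 52.0 CPM across the Control libraries (-0.61 ± 0.12, adjusted p = 0.048). In all 3 the highest Ang II library was below the lowest Control library. The predicted gene Gm34302 had 3.38, 5.23 and 4.09 CPM across the Ang II libraries and 8.94, 20.7 and 8.01 CPM across the Control libraries (-1.56 ± 0.31, adjusted p = 0.048). None of the 4 was called without Ang II replicate 1 (adjusted p = 0.124 to 0.245), Ang II replicate 3 (0.130 to 0.323) or Control replicate 2 (0.0661 to 0.146), and of the 4 only Gm34302 was called when libraries were scaled by library size alone (adjusted p = 0.0449). Ano10 and Scn4b were called without Ang II replicate 2, Scn4b without Control replicate 1, and Ano10 and Gm34302 without Control replicate 3.

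Several genes lay at the threshold. The same adjusted p of 0.048 was shared by 15 called genes. Just outside it, Panx1, a channel that releases ATP, had 5.70, 4.69 and 4.83 CPM across the Ang II libraries and 2.59, 2.85 and 2.63 CPM across the Control libraries (0.92 ± 0.18, adjusted p = 0.0507). Fbln5, an elastic fibre fibulin, followed at 1.05 ± 0.21 (adjusted p = 0.0519). Itga11, the collagen-binding integrin of myofibroblasts, had 19.5, 10.6 and 16.8 CPM across the Ang II libraries and 5.97, 2.05 and 5.63 CPM across the Control libraries (1.77 ± 0.36, adjusted p = 0.053). The groups were apart in all 3.

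**Figure D5:**
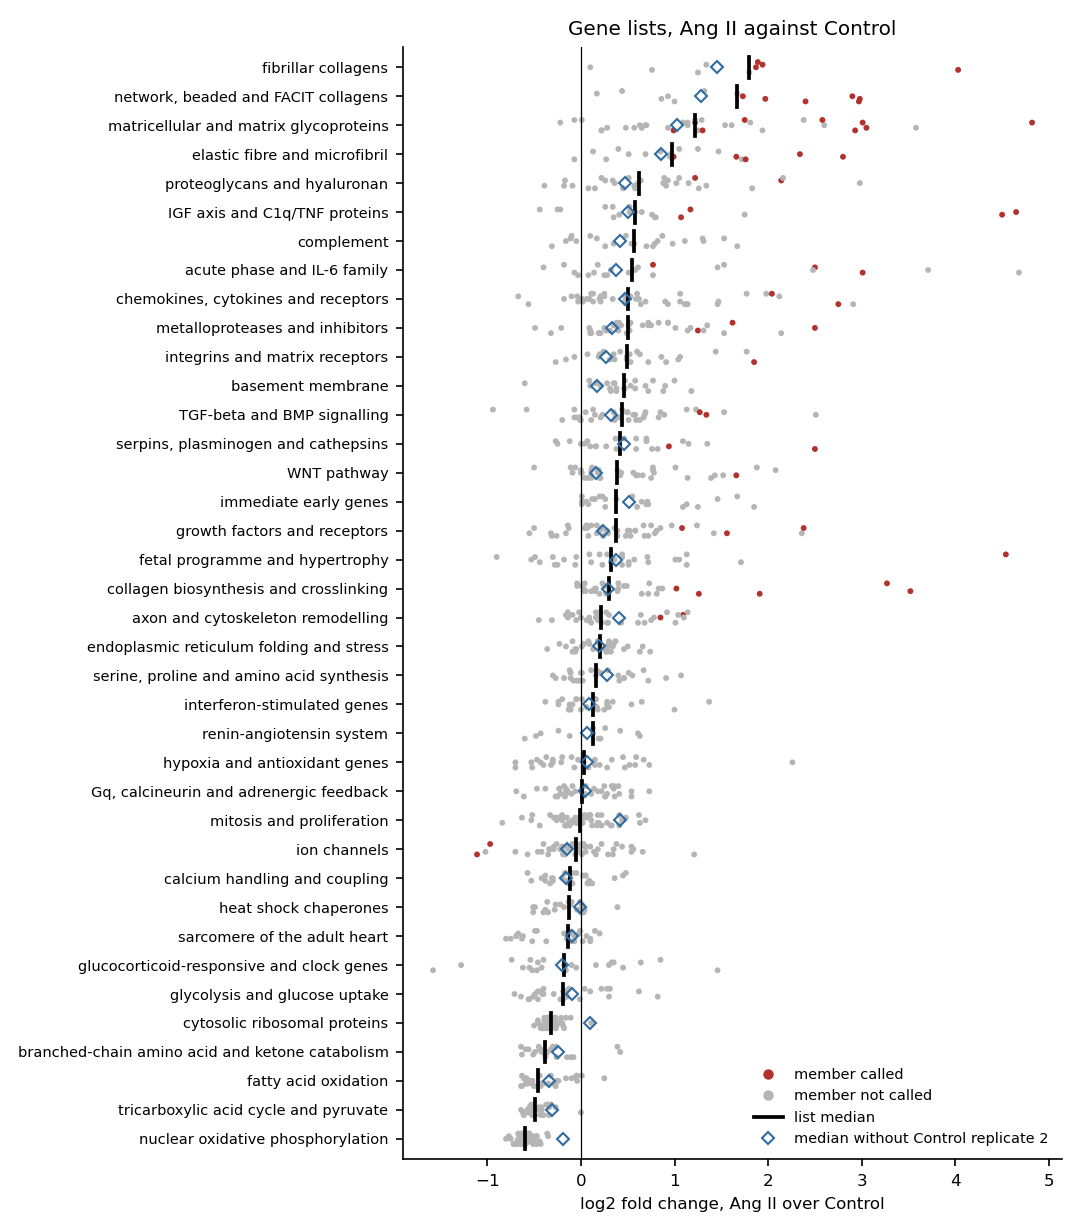
Log2 fold change, Ang II over Control, of every tested member of the 38 gene lists, with called members in red, the list median as a black bar and the median without Control replicate 2 as an open blue diamond. Medians run from 1.8 in fibrillar collagens to -0.60 in nuclear oxidative phosphorylation; the diamond lies far from the bar for oxidative phosphorylation, ribosomal proteins and mitosis.

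The pathway through which Ang II acts showed no calls of its own. Of 13 tested renin-angiotensin genes 0 were called in edgeR and in limma-voom and 1 was called lower in DESeq2, with a median log2 fold change of 0.13. An unadjusted p of 0.05 was passed by 2 of them, and by 17.6% of all tested genes. Agtr1a, the main AT1 receptor gene of the mouse heart, had 24, 31.9 and 22.6 CPM across the Ang II libraries and 39.2, 39.5 and 40.0 CPM across the Control libraries, groups that were apart without a call (-0.60 ± 0.13, adjusted p = 0.0718). Of 39 tested genes of Gq, calcineurin and adrenergic feedback 0 were called in edgeR, DESeq2 or limma-voom, with a median of 0.01. Among them 8 passed an unadjusted p of 0.05, again beside 17.6% of all tested genes. Gnaq, the Gq alpha subunit, had 52.1, 45.2 and 47.5 CPM across the Ang II libraries and 39.9, 26.6 and 43.0 CPM across the Control libraries (0.40 ± 0.16, adjusted p = 0.246). Of 25 immediate early genes 0 were called in edgeR or limma-voom and 2 were called higher in DESeq2, 6 passed an unadjusted p of 0.05, and all 25 log2 fold changes were above 0 with a median of 0.38, where 49.9% of all genes were above 0. Egr2, a zinc-finger factor of this class, had 5.32, 3.57 and 8.02 CPM across the Ang II libraries and 1.59, 1.83 and 1.29 CPM across the Control libraries (1.85 ± 0.46, adjusted p = 0.106).

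In the fetal and hypertrophy programme 1 of 31 tested genes, Sprr1a, was called higher and 0 lower, with a median log2 fold change of 0.32. DESeq2 called 3 higher and 0 lower. Myh7, the myosin heavy chain of the fetal mouse ventricle, had 838, 499 and 601 CPM across the Ang II libraries and 224, 88.5 and 278 CPM across the Control libraries, which do not overlap (1.71 ± 0.43, adjusted p = 0.108). Ankrd1, a stretch-responsive ankyrin repeat protein, had 2530, 1900 and 2720 CPM across the Ang II libraries and 759, 1920 and 870 CPM across the Control libraries. Nppb, brain natriuretic peptide, had 370, 354 and 424 CPM across the Ang II libraries and 139, 1110 and 116 CPM across the Control libraries. In both, Control replicate 2 stood above the other Control libraries and reached or passed the Ang II libraries. The log2 fold change of Ankrd1 was 1.01 ± 0.32 with that library and 1.55 without it (adjusted p = 0.179 and 0.0276). Sprr1a lost its call without Control replicate 2 (adjusted p = 0.0898). The log2 fold change of Nppb was -0.25 ± 0.69 with that library and 1.59 without it (adjusted p = 0.868 and 0.0899).

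Metabolic genes of cardiomyocytes had lower values in Ang II hearts without a call. Of 29 tested genes of the tricarboxylic acid cycle and pyruvate entry 0 were called in edgeR or limma-voom and 7 were called lower in DESeq2. An unadjusted p of 0.05 was passed by 25 of them, against 17.6% of all tested genes. The groups were apart with Ang II lower in 18, against 10.3% of all genes. Their median log2 fold change was -0.49, and -0.31 without Control replicate 2. Idh3b, a subunit of the cycle's isocitrate dehydrogenase, had 514, 666 and 544 CPM across the Ang II libraries and 790, 1130 and 731 CPM across the Control libraries (-0.62 ± 0.17, adjusted p = 0.143), and its exons overlap those of the opposite-strand gene Nop56. Of 38 fatty acid oxidation genes 22 were apart and lower, with a median of -0.46, and of -0.34 without Control replicate 2. Hadh, a dehydrogenase of the beta-oxidation spiral, had 355, 514 and 382 CPM across the Ang II libraries and 611, 737 and 562 CPM across the Control libraries (-0.61 ± 0.18, adjusted p = 0.147). In both genes Ang II replicate 2 was the highest Ang II library and Control replicate 2 the highest Control library.

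Of 25 genes that break down branched-chain amino acids and ketone bodies 16 were apart and lower, against 10.3% of all genes. Their median was -0.38, and -0.25 without Control replicate 2. Bckdha, a subunit of the branched-chain ketoacid dehydrogenase, had 39.9, 57.7 and 47.3 CPM across the Ang II libraries and 69.1, 92.0 and 64.4 CPM across the Control libraries (-0.64 ± 0.18, adjusted p = 0.141). All 58 nuclear genes of oxidative phosphorylation had log2 fold changes below 0, though the groups overlapped in 43 and were apart and lower in 15. Their median was -0.60. That median was -0.19 without Control replicate 2, the list summing to 25900 to 32700 CPM across the Ang II libraries and to 36200, 57800 and 33100 CPM across the Control libraries. Counts of calls in these 3 lists were 0 in edgeR and limma-voom, and in DESeq2 5 fatty acid oxidation genes, 4 of branched-chain and ketone breakdown and 5 of oxidative phosphorylation were called lower. At an unadjusted p of 0.05, 21, 16 and 52 of the members of these lists passed, against 17.6% of all tested genes. The 10 cardiomyocyte markers summed to 58900 to 70900 CPM across the Ang II libraries and 71600 to 91100 CPM across the Control libraries, and the part of a lower share of cardiomyocyte RNA in these values was not tested.

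The contractile and electrical genes were closer to the median of all genes. Of 26 adult sarcomere genes 0 were called in edgeR, DESeq2 or limma-voom, and the median log2 fold change was -0.14. An unadjusted p of 0.05 was passed by 6 of them, and by 17.6% of all tested genes. The median was -0.12 for 27 genes of calcium handling and -0.05 for 51 ion channel genes. Without Control replicate 2 these medians were -0.09, -0.16 and -0.15. With library size alone they were 0.03, 0.04 and 0.09, where the median of all genes was 0.17. Of the ion channel genes Scn4b and Ano10 were called lower. Myh6, the adult myosin heavy chain, had 18200, 20800 and 16800 CPM across the Ang II libraries and 20000, 9040 and 24600 CPM across the Control libraries (0.06 ± 0.30, adjusted p = 0.935). Its Control libraries spread more widely than the groups differed. Atp2a2, the calcium pump of the sarcoplasmic reticulum, had 10600, 12700 and 10300 CPM across the Ang II libraries and 15900, 11300 and 16600 CPM across the Control libraries (-0.38 ± 0.19, adjusted p = 0.302).

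Stress, growth and housekeeping lists held no edgeR call. An unadjusted p of 0.05 was passed by 17.6% of all tested genes, the share beside which the counts below stand. Of 33 hypoxia and antioxidant genes 0 were called in edgeR or limma-voom, 1 was called higher and 1 lower in DESeq2, and 11 passed an unadjusted p of 0.05, with a median log2 fold change of 0.03. Within it, Nox4, the NADPH oxidase of fibroblasts and cardiomyocytes, had 19.1, 9.59 and 17.3 CPM across the Ang II libraries and 3.17, 2.53 and 3.88 CPM across the Control libraries (2.26 ± 0.49, adjusted p = 0.07). The groups were apart for Nox4 and the threshold was missed. For 35 genes of folding and stress in the endoplasmic reticulum the median was 0.20, with 0 called in edgeR, limma-voom or DESeq2 and 8 past an unadjusted p of 0.05. For 27 genes of serine, proline and amino acid synthesis it was 0.16, with 0 called in edgeR or limma-voom, 3 called higher in DESeq2 and 8 past an unadjusted p of 0.05. Among these, Pycr1, which makes proline, had 3.91 to 4.12 CPM across the Ang II libraries and 1.59 to 2.69 CPM across the Control libraries (0.91 ± 0.22, adjusted p = 0.0979). The 52 genes of mitosis had a median of -0.01 that was 0.42 without Control replicate 2, and the 56 cytosolic ribosomal proteins one of -0.32 that was 0.10 without it. Neither list had a call in edgeR, limma-voom or DESeq2, and 4 and 1 of their genes passed an unadjusted p of 0.05.

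Markers of the other cell types of the heart were read beside these results. The 12 myofibroblast markers summed to 1470, 1110 and 1790 CPM across the Ang II libraries and to 495, 453 and 445 CPM across the Control libraries, with 5 called higher and a median log2 fold change of 1.79. Several of them, such as Postn, Tnc and Lox, are also among the matrix genes above. The 12 fibroblast markers summed to 3880 to 4790 CPM across the Ang II libraries and 2500 to 4020 CPM across the Control libraries, which overlap, and 1 was called, Pi16. For 10 smooth muscle markers the sums were 876 to 1190 CPM across the Ang II libraries and 544 to 775 CPM across the Control libraries. Of these markers 0 were called in edgeR or limma-voom and 2 were called higher in DESeq2. An unadjusted p of 0.05 was passed by 4 of them, and by 17.6% of all tested genes. Acta2, smooth muscle actin, had 256, 233 and 382 CPM across the Ang II libraries and 189, 187 and 161 CPM across the Control libraries (0.70 ± 0.29, adjusted p = 0.256). The 11 endothelial markers summed to 1610 to 1740 CPM across the Ang II libraries and 1350 to 1600 CPM across the Control libraries, with 0 called in edgeR, limma-voom or DESeq2, 0 past an unadjusted p of 0.05 and a median of 0.16. Of 9 markers of lung, thymus and oesophagus all were under 1 CPM in the 6 libraries. The part of these cell types in the called genes was not tested.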

How the data were processed

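Poly(A) RNA of mouse heart was sequenced in 12 libraries as single-end reads of 50 bp from 300 ng of RNA with a kit that keeps no strand, per the labels' protocols. The deposited values are raw read counts per gene made by the authors. Per the submitters' processing notes, fastp 0.20.0, HISAT2 2.1.0, featureCounts 2.0.0 and edgeR 3.30.0 were used with GRCm38, and the strand setting is not given in the sources used here.

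From the counts, edgeR 4.0.16 (R 4.3.3) was used with filterByExpr, TMM factors and a robust quasi-likelihood fit over all 12 libraries, and Ang II was contrasted with Control with Benjamini-Hochberg adjustment over 15336 genes. The common biological coefficient of variation was 0.189. CPM values use the effective library size, and SE is the log2 fold change divided by the square root of F, so it restates the test. DESeq2 1.42.0 and limma-voom (limma 3.58.1) were alternatives. GENCODE M21 gave positions and RefSeq (GRCm38.p6) gave promoters and microRNAs.

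Genes named are the 20 called with the smallest p, the 8 called higher with the largest fold change, the 4 called lower, up to 4 members of each list by p, 3 genes on each side of the threshold and genes fixed for tissue and treatment. The other called genes are named because the called set is described as a whole, apart from 1 that is not reported here. The members and lists were chosen with earlier results of these data known.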

Additional observations from a re-analysis of the deposited data

How the results depend on the processing

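The signs of 171 named genes, 56 of the 83 called ones among them, were followed under 22 alternatives, 12 of which leave out 1 library. None of the 56 changed sign, and the other called genes were not part of that check. The number of calls moved far more. It was 83 (79 higher, 4 lower) as reported, 513 (365, 148) with DESeq2, 51 (50, 1) with limma-voom, 2617 (1486, 1131) with limma-voom and sample quality weights, which gave Control replicate 2 a weight of 0.112, 167 (149, 18) with no filter on low counts, 20 (20, 0) with only the 2 groups in the fit and 37 (37, 0) with the atrial marker score as a covariate. Calls of lower genes were 1 with library size alone, 1 at a mean of at least 5 CPM and 2 when a change of 1 or more on the log2 scale was also required. Leaving out 1 library gave 8 to 151 calls, 8 to 138 higher and 0 to 13 lower.

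Deviations from the group means correlated at 0.33, 0.287 and -0.077 between same-numbered Ang II and Control libraries. Between differently numbered ones the correlations ran from -0.374 to 0.29. With 3 libraries a group these values cannot decide whether the replicate numbers pair the samples. With a replicate block 57 genes were called (53 higher, 4 lower), 52 of them among the 83.

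Uncalled genes that changed sign were 5. Myh6 had a log2 fold change of -0.07 with the atrial score, -0.2 with quality weights and -0.26 to 0.37 without 1 library. Nppb had 1.01 with the atrial score, 0.06 with library size alone, 0.52 with limma-voom, 1.49 with quality weights, 0.25 with the replicate block and -0.69 to 1.59 without 1 library. Tgfb1 had 0.09 with the atrial score, 0.16 with library size alone, 0.2 with quality weights, 0.01 at a mean of at least 5 CPM and -0.13 to 0.18 without 1 library. Tnnt2 had 0.1 with library size alone, and Rpl32 -0.69 to 0.07 without 1 library. The cause was not tested.

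With 3 libraries a group and Control replicate 2 apart, counts of calls are a property of these libraries. Genes under 1 CPM in every Control library, 14 of the called higher ones, have fold changes that rest on few reads.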
